A study of Homo sapiens with 12 samples.

Results

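The clustered histone genes encode the linker histone H1 and the core histones H2A, H2B, H3 and H4. They were chosen by name, as every gene whose current symbol follows the pattern of these clusters (H2AC, H2BC, H3C or H4C with a number, or H1-1 to H1-6; the older names begin with HIST1, HIST2 or HIST3). The rule found 69 of the 60664 genes in the count table, 6 for H1, 17 for H2A, 18 for H2B, 13 for H3 and 15 for H4. Of these, 55 lie on chromosome 6, 13 on chromosome 1 and 1, H4C16, on chromosome 12. A mean of 0.5 CPM or more over the 12 libraries was reached by 27 of the 69, where CPM is the usual count scaled by library size, here with TMM factors.

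The libraries were RNA-seq of SK-N-SH, an established human neuroblastoma line, cultured on a substrate of 1, 8 or 30 kPa, with 4 libraries at each stiffness. No other treatment is given in the labels, and all results come from this 1 line. The comparisons ask how the level of each gene differed with the stiffness of the substrate. The labels do not say whether the 4 libraries of a group came from separate cultures, so each p-value sets a difference against how far the libraries of a group vary, and that variation may be technical.

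Histones package DNA: H2A, H2B, H3 and H4 form the core of the nucleosome and H1 binds the linker DNA between nucleosomes. The clustered genes supply most histone protein while DNA is copied in S phase. Their main transcripts have no poly(A) tail and end in a conserved stem-loop bound by SLBP, whereas longer polyadenylated transcripts are known from some of them. The sources used here do not give whether the libraries were made by poly(A) selection, and how far the counts stand for the tailless transcripts was not tested.

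Because it marks where the tailless transcripts end, the stem-loop is shown for 6 members described below, as it stands in the GENCODE v29 transcripts of build GRCh38. Capitals mark the 16-base stem-loop, and the lower case letters are 5 bases on each side, read 5′ to 3′ along the transcript.
H2AC6 (chr6:26124664-26124689, plus strand): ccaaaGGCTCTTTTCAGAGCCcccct
H2BC21 (chr1:149886183-149886208, minus strand): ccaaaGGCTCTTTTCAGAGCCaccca
H2BC5 (chr6:26158582-26158607, plus strand): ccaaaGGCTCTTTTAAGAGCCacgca
H2AC11 (chr6:27133510-27133535, plus strand): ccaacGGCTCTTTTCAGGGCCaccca
H3C6 (chr6:26225591-26225616, plus strand): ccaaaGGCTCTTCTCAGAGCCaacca
H4C8 (chr6:26285126-26285151, minus strand): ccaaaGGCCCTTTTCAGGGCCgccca
The search pattern was GG, any 2 bases, CTT, any base, T, any base, A, any 3 bases and CC, on the transcript strand alone. It was found in 31 of the 67 members with a transcript in v29, and in 0.96% of all 58676 genes there. The form of H2AC6 and H2BC21, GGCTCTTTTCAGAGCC, was carried by 17 members. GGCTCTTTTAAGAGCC, as in H2BC5, was carried by 4. Among H4 genes, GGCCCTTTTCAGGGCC was carried by 5 members and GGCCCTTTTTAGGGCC by 3. H2AC11 and H3C6 each had a form that no other member carried.

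The gene models differed between the members with more and fewer counts. Of the 27 members at 0.5 CPM or more, 23 had a model that holds the stem-loop and 20 had one that runs at least 100 bases past it. Of the 40 members under 0.5 CPM with a transcript in v29, 8 had a stem-loop and 3 ran past it. Models without the stem-loop, with every transcript a multiple of 3 bases long, were found for 3 of the 27 and for 30 of the 40. Such a length is that of a coding sequence, but the models were not compared with one. Some may hold more, as that of H4C3 has 435 bases against 312 for H4C4. A short model can collect fewer counts, and the annotation used for the deposited counts is not given in the sources used here. The part of model length in the low counts was not tested, so a difference in CPM between genes or types is a difference in counts and is not read as one in RNA level.

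**Figure D1:**
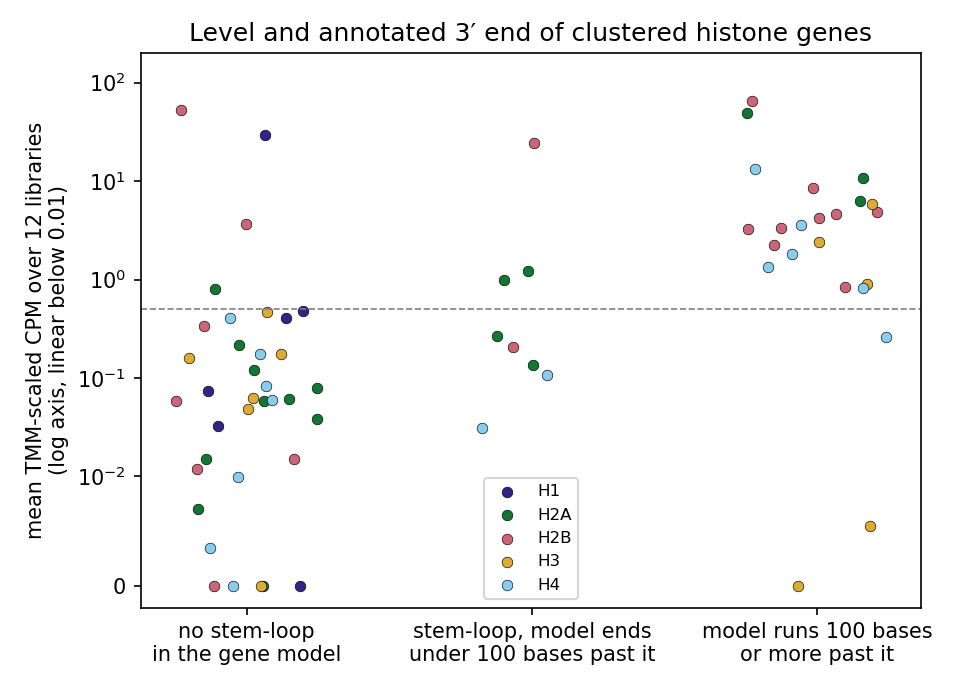
Clustered histone genes by their GENCODE v29 gene model and by their mean CPM over the 12 libraries, against the threshold of 0.5 CPM. The 27 genes at or over 0.5 CPM mostly have models that run past the stem-loop (20 genes). Of the 40 genes under 0.5 CPM with a transcript, 8 have a model that holds the stem-loop.

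The depth and the quality of the libraries bear on what follows. The 1 kPa libraries held 1.43e+07 to 1.59e+07 counts, those at 8 kPa 1.50e+07 to 2.53e+07 and those at 30 kPa 2.39e+07 to 2.78e+07. All 1 kPa libraries and 8 kPa replicate 1 were shallow and the other 7 were deep, so depth and stiffness cannot be told apart between 1 and 30 kPa. Within the 8 kPa group, replicate 4 had the lowest value for 17 of the 31 histone genes with enough counts to be tested. Replicates 1, 2 and 3 were lowest for 4, 8 and 2 of them. The same count was not made over all tested genes, so it is not read as particular to histone genes. As for identity, 9 of 10 sympathetic neuroblastoma markers were measured, with summed levels of 654 to 1055 CPM at 1 kPa, 923 to 1368 CPM at 8 kPa and 1007 to 1163 CPM at 30 kPa. Of these 9, 3 rose from 1 to 8 kPa by edgeR, PHOX2A and STMN2 among them, against 8.17% of all tested genes called higher. The part of these markers in the histone results was not tested. The exception was TH, the rate-limiting enzyme of catecholamine synthesis, at a mean of 0.00299 CPM. Immune markers summed to at most 0.646 CPM in any library, while 7 of 7 fibroblast markers were measured, at 1317 to 1777, 1284 to 1538 and 1523 to 1716 CPM at 1, 8 and 30 kPa. The 6 markers of the substrate-adherent mesenchymal state summed to 3939 to 4359, 3625 to 4310 and 3290 to 3772 CPM. Of these 6, PRRX1 and YAP1 were lower at 30 than at 1 kPa by edgeR, against 1.33% of all tested genes called lower. Epithelial markers summed to 46.5 to 72.6 CPM and endothelial markers to 2.70 to 10.3 CPM. From 1 to 8 kPa, 0 of 4 tested epithelial and 0 of 2 tested endothelial markers were called, against 13.8% of all tested genes.

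The number of genes with a measurable count differed by histone type. At 0.5 CPM or more were 1 of 6 H1 genes, 6 of 17 H2A genes, 12 of 18 H2B genes, 3 of 13 H3 genes and 5 of 15 H4 genes. The members just over the threshold were H2AC15, at a mean of 0.797 CPM, and H4C14, at 0.816 CPM. Just under it were H1-3, at 0.483 CPM, and H3C13, at 0.463 CPM. With a threshold of 0.25 CPM 34 members would be counted, and with 1 CPM 22. No count in any library was found for 6 members (H1-1, H2AC1, H2BC1, H3C4, H3C14 and H4C6), and a count of 0 over the 12 libraries allows up to 0.012 CPM, counting error only. That limit does not hold for H3C4 and H3C14, since every 75-base stretch of theirs in GENCODE v29 occurs in another gene and their reads may not have been assigned to them.

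Most histone counts came from few genes. The 3 members with the most counts (H2BC21, H2BC12 and H2AC6) held 53.6% of the summed CPM of all 69, and the top 9 held 83.4%. By type, H2B genes held 57.3% of the summed CPM, H2A 22.4%, H1 9.82%, H4 7.08% and H3 3.32%. These are shares of counts, not scaled by gene length.

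**Figure D2:**
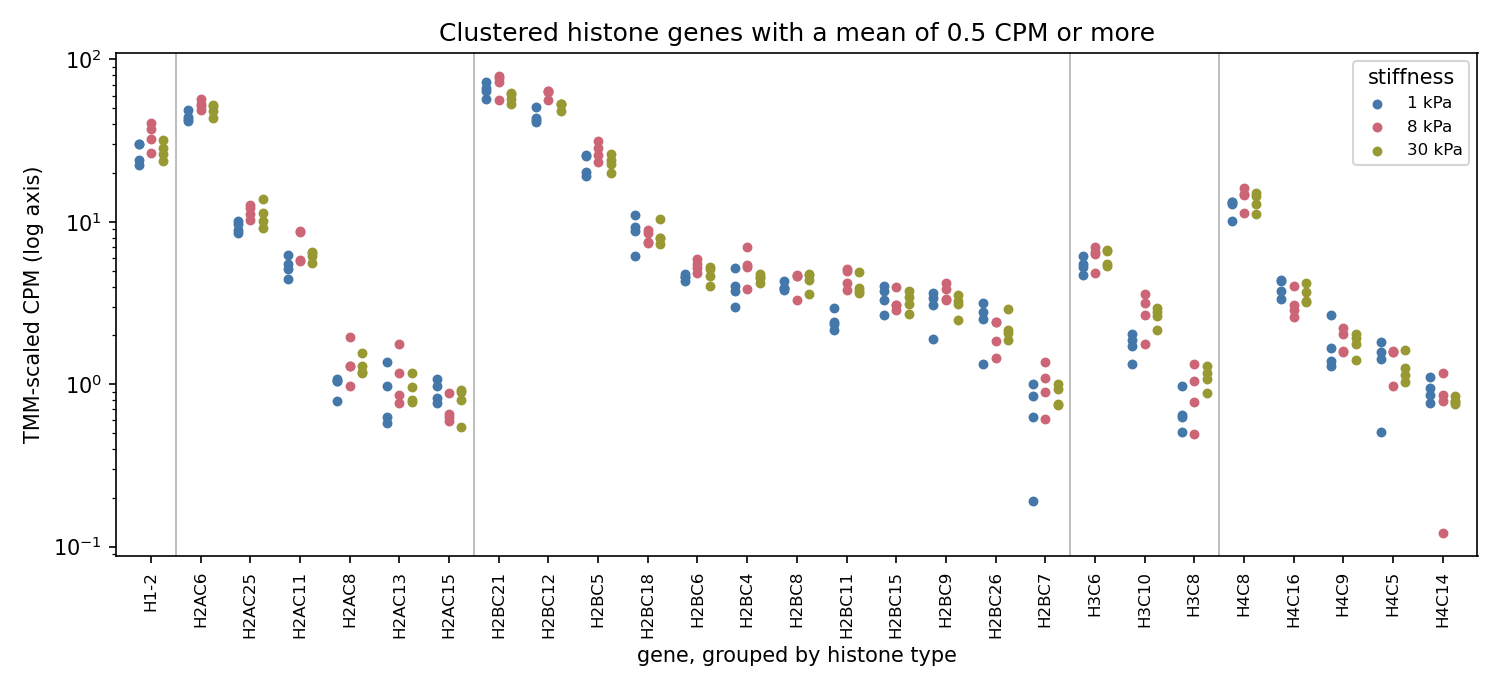
Levels in CPM, on a log axis, of the clustered histone genes at 0.5 CPM or more in the 12 libraries, arranged by histone type; each point is 1 library and the colour gives the stiffness. Only 1 of 6 H1 genes is shown against 12 of 18 H2B genes, and for most genes the colours overlap.

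Low counts kept 38 members, all with a mean of at most 0.334 CPM, out of the tests. The 31 tested members were 3 H1, 6 H2A, 12 H2B, 4 H3 and 6 H4 genes, and counts of members below refer to these 31 alone.

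Between 1 and 8 kPa, 3 members rose and 0 fell by edgeR's quasi-likelihood test, with p-values adjusted over all 17960 tested genes by the Benjamini-Hochberg method at 0.05. The 3 were H2BC11, H2BC12 and H2AC6. They are 9.68% of the 31 members, against 13.8% of all tested genes called in either direction, 8.17% called higher and 5.6% called lower, so the share called was near the background. An unadjusted p under 0.05 was found for 9 members, all higher, against 31.2% of all genes in either direction. The fold changes had a median of 0.22 on the log2 scale, from -0.38 to 0.87, against -0.0148 over all tested genes, and 25 of the 31 were above 0 against 47.6% of all genes. Without 8 kPa replicate 4, edgeR called 7 members higher (H2BC11, H2BC12, H2AC6, H1-2, H2AC11, H2BC4 and H3C10) and 1 lower (H4C16), and 3465 of the 18229 genes tested in that fit. Over the 12 fits that each left out 1 library, 2 to 8 members were called, the most in this fit.

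H2BC11 encodes a core H2B and lies on chromosome 6 from 27132316 to 27132795 in RefSeq's GRCh38.p14 (ENSG00000124635 in the count table). Its level was 2.93, 2.15, 2.41 and 2.34 CPM in 1 kPa replicates 1 to 4. At 8 kPa it was 5.12, 3.82, 4.18 and 4.99 CPM, and at 30 kPa 3.92, 3.74, 4.94 and 3.64 CPM. Every library at 8 and at 30 kPa was above every library at 1 kPa, and the 8 and 30 kPa groups overlapped. The means were 2.46 ± 0.335 CPM (SD, n = 4), 4.53 ± 0.627 CPM and 4.06 ± 0.598 CPM. The change from 1 to 8 kPa was 0.87 on the log2 scale (SE 0.157, edgeR adjusted p = 0.00799). From 1 to 30 kPa it was 0.73 (SE 0.157, edgeR adjusted p = 0.0294), and from 8 to 30 kPa it was -0.14 (edgeR adjusted p = 0.612). These values rest on 30 to 42 counts in the 1 kPa libraries and 78 to 138 in the others. With the depth class of the library as a term, the change from 1 to 8 kPa was 1.06 with an edgeR adjusted p of 0.0658.

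H2BC12, another core H2B gene, spans positions 27138293 to 27146858 of chromosome 6 in the same build (ENSG00000197903). It had 43.6, 42.2, 51.2 and 41.5 CPM at 1 kPa. The 8 kPa libraries had 64.0, 64.0, 62.7 and 56.2 CPM, and the 30 kPa libraries 53.4, 48.3, 52.9 and 53.3 CPM. All 8 kPa libraries were above all others, and the 30 kPa values reached into the range at 1 kPa only at replicate 2. The group means were 44.6 ± 4.50, 61.7 ± 3.75 and 52.0 ± 2.44 CPM (SD, n = 4 each). From 1 to 8 kPa H2BC12 changed by 0.47 (SE 0.0706, edgeR adjusted p = 0.00543), and with depth class as a term by 0.52 with an edgeR adjusted p of 0.0658. The stem-loop pattern was not found in the GENCODE v29 models of H2BC11 and H2BC12. The only v29 transcript of H2BC12 has 381 bases, and 50.5% of its 75-base stretches occur in other genes. Those genes were H2BC12L, ENSG00000274559, H2BC11, H2BC4, H2BC5, H2BC6, H2BC15 and H2BC17. The part shared with each was not counted. H2BC11 shares 1.33% of its own stretches with other genes. In RefSeq the longer span of H2BC12 holds H4C9 on the opposite strand. How the deposited counts treat shared or opposite-strand reads is not given in the sources used here, so the level of H2BC12 is uncertain.

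H2AC6, a core H2A gene (ENSG00000180573, positions 26124172 to 26124690 of chromosome 6), had 44.4, 42.1, 48.6 and 43.2 CPM at 1 kPa. It had 57.4, 51.9, 53.0 and 48.9 CPM at 8 kPa and 52.8, 43.5, 52.1 and 48.2 CPM at 30 kPa. The lowest 8 kPa library stood just above the highest 1 kPa library, and the 30 kPa libraries overlapped both groups. The means were 44.6 ± 2.88, 52.8 ± 3.51 and 49.1 ± 4.26 CPM (SD, n = 4 each). The change from 1 to 8 kPa was 0.24 (SE 0.0721, edgeR adjusted p = 0.0393). This call held in 5 of the 12 fits that each left out 1 library. It was lost without 1 kPa replicate 1, 2 or 4, without 8 kPa replicate 1, 2 or 3 and without 30 kPa replicate 4, with a highest adjusted p of 0.132 (without 8 kPa replicate 1). The edgeR adjusted p was 0.0855 with depth class as a term and 0.0616 with only the 8 libraries compared.

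**Figure D3:**
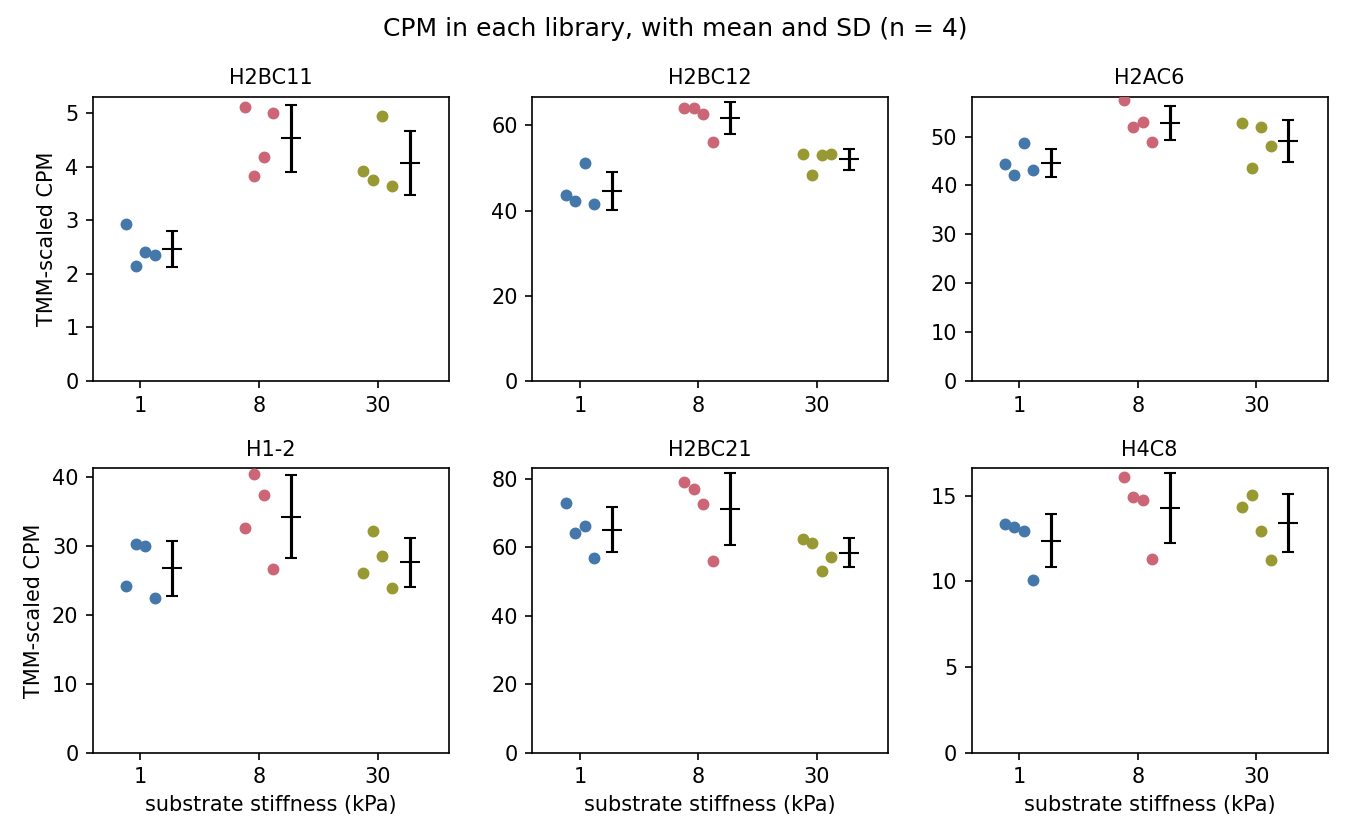
Levels in CPM (each axis from 0) of H2BC11, H2BC12, H2AC6, H1-2, H2BC21 and H4C8 at 1, 8 and 30 kPa; points are the 4 libraries of a group, with their mean and SD. H2BC11 is above its 1 kPa libraries at both higher stiffnesses, H2BC12 is highest at 8 kPa, and the groups of H4C8 overlap.

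The promoters of the 3 called genes are shown because these members were higher at 8 kPa. Each runs from 250 bases before to 50 after the transcription start in RefSeq (GRCh38.p14). Capitals mark the octamer (ATTTGCAT or ATGCAAAT), the CCAAT box (CCAAT or ATTGG) and the TATA box (TATAAA or TTTATA), the second form of each being the opposite strand. Matches may overlap, as in TTTATAAA, which counts as 2.
H2BC11 (chr6:27132746-27133045, minus strand): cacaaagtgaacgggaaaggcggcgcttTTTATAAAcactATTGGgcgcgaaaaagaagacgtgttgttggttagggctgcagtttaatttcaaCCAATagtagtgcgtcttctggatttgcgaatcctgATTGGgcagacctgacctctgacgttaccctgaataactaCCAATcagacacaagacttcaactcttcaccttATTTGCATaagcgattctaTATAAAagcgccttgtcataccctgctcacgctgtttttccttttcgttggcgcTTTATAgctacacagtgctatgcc
H2BC12 (chr6:27146809-27147108, minus strand): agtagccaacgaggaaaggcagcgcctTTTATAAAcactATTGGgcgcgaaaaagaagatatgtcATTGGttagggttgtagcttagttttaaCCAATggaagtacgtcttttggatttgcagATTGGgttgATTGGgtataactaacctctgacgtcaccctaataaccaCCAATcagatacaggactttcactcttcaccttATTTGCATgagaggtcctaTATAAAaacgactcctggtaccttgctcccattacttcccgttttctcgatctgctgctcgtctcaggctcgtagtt
H2AC6 (chr6:26123922-26124221, plus strand): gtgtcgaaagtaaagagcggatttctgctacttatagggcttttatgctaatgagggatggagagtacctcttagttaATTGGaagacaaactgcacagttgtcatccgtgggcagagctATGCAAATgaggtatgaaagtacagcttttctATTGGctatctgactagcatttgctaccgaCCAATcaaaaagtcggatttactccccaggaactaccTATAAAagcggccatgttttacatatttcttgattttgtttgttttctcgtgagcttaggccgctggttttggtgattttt
The H2BC11 and H2BC12 promoters were identical in 73.9% of aligned positions. Identity to the H2AC6 promoter was 49.1% for H2BC11 and 50.8% for H2BC12. Each of the 3 held 1 octamer, known as a site of the POU2F1 factor in H2B promoters. CCAAT boxes numbered 4 in H2BC11, 6 in H2BC12 and 3 in H2AC6.

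Promoter content differed by histone type. A promoter was found for 64 of the 69 members. The octamer stood in 14 of 18 H2B promoters and 11 of 16 H2A promoters, in 1 of 11 for H3, and in 0 of 6 for H1 and 0 of 13 for H4, against 2.19% of all 27305 promoters. Paired H2A and H2B genes on opposite strands had starts 194 to 248 bases apart. Their promoter stretches overlap, so the same octamer can be counted for both types. The CCAAT box stood in 54 of the 64 (84.4%) against 39.7% of all promoters, with 3 of 13 for H4. The TATA box stood in 43 of the 64 (67.2%) against 3819 of the 27305. The motifs were also present in members that were not called, so they do not separate the 3 called genes.

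H2A and H2B genes often lie head to head and share the stretch between their starts. The start of H2BC11 is 248 bases from that of H2AC11. H2AC11 had means of 5.35, 7.27 and 6.16 CPM at 1, 8 and 30 kPa, and a fold change from 1 to 8 kPa of 0.43 that did not pass (edgeR adjusted p = 0.0857). The starts of H2AC6 and H2BC4 are 246 bases apart. H2BC4 had means of 3.99, 5.38 and 4.53 CPM and a fold change of 0.41 (edgeR adjusted p = 0.138). H2AC25 and H2BC26 are 230 bases apart on chromosome 1, with fold changes of 0.31 and -0.23, neither of which passed.

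H1 was represented by H1-2, a linker histone (ENSG00000187837). Its level was 24.2, 30.3, 29.98 and 22.4 CPM at 1 kPa, 32.6, 40.4, 37.4 and 26.6 CPM at 8 kPa and 26.1, 32.1, 28.6 and 23.8 CPM at 30 kPa. The groups overlapped, and at each stiffness replicate 4 was the lowest library and replicate 2 the highest. The fold change from 1 to 8 kPa was 0.36 (SE 0.135), which did not pass (edgeR adjusted p = 0.0867). Among the 12 fits that each left out 1 library, it passed in 1, without 8 kPa replicate 4 (edgeR adjusted p = 0.0199). The highest edgeR adjusted p of these fits was 0.22. With a replicate block and all 12 libraries, the change was 0.35 (SE 0.057, edgeR adjusted p = 0.00475). Without a filter on low counts it was 0.38 (SE 0.105, edgeR adjusted p = 0.0205).

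Among H2B genes, H2BC21 (ENSG00000184678) had 72.9, 64.3, 66.3 and 57.0 CPM at 1 kPa, 79.3, 77.1, 72.7 and 55.9 CPM at 8 kPa and 62.4, 61.2, 53.1 and 57.3 CPM at 30 kPa. Replicate 4 was the lowest of the 8 kPa libraries and lay under the whole 1 kPa range. The change of 0.13 from 1 to 8 kPa did not pass (edgeR adjusted p = 0.416). H2BC5 had means of 22.7 ± 3.47, 27.3 ± 3.47 and 23.2 ± 2.55 CPM (SD, n = 4 each), and its change of 0.26 did not pass either (edgeR adjusted p = 0.144).

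H2AC25, on chromosome 1, had 8.52, 10.2, 9.75 and 8.93 CPM at 1 kPa, 12.2, 10.3, 12.7 and 11.3 CPM at 8 kPa and 10.2, 9.17, 11.4 and 13.8 CPM at 30 kPa. Its 8 kPa libraries were all above its 1 kPa libraries, yet the fold change of 0.31 did not pass (edgeR adjusted p = 0.101). In all, 5 members had every 8 kPa library above every 1 kPa library (H2BC11, H2BC12, H2AC6, H2AC25 and H2BC6), against 9.41% of all genes, and 0 had every one below, against 7.36%. The shallow 8 kPa replicate 1 alone was above all 1 kPa libraries, which are as shallow, for 21 of the 31 members, against 29.9% of all genes. H2BC6 was not chosen by the naming rule but named after its values were seen.

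The H3 genes with most counts were H3C6 and H3C10. H3C10 had 2.03, 1.72, 1.89 and 1.33 CPM at 1 kPa, 3.15, 2.66, 3.60 and 1.76 CPM at 8 kPa and 2.17, 2.78, 2.62 and 2.94 CPM at 30 kPa. The 30 kPa libraries were all above the 1 kPa libraries, while 8 kPa replicate 4 fell within the 1 kPa range. Its change from 1 to 8 kPa was 0.67 (SE 0.223, edgeR adjusted p = 0.0584). Of the 12 fits that each left out 1 library, it passed in 1, without 8 kPa replicate 4 (edgeR adjusted p = 0.00985). The highest edgeR adjusted p of these fits was 0.188. With all 12 libraries, H3C10 passed with DESeq2 (adjusted p 0.0358) and without a filter on low counts (edgeR adjusted p = 0.0364). H3C6 had means of 5.41, 6.20 and 6.05 CPM, with a fold change of 0.19 (edgeR adjusted p = 0.372).

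H4 genes had the smallest median fold change of the 5 types. H4C8 had 13.3, 13.2, 12.9 and 10.1 CPM at 1 kPa, 16.1, 14.9, 14.7 and 11.3 CPM at 8 kPa and 14.4, 15.1, 12.9 and 11.2 CPM at 30 kPa. All 3 groups overlapped, and the change from 1 to 8 kPa was 0.20 (edgeR adjusted p = 0.301). H4C16, the member outside the chromosome 6 and 1 clusters, had its lowest mean at 8 kPa, with means of 3.95 ± 0.482, 3.14 ± 0.636 and 3.60 ± 0.464 CPM (SD, n = 4 each). Its change of -0.33 did not pass (edgeR adjusted p = 0.188). It passed in 1 of the 12 fits that each left out 1 library, without 8 kPa replicate 4 (-0.48, edgeR adjusted p = 0.042). The highest edgeR adjusted p of these fits was 0.41.

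By type, the median log2 fold change from 1 to 8 kPa was 0.36 over 3 H1 genes, 0.31 over 6 H2A genes, 0.24 over 12 H2B genes, 0.29 over 4 H3 genes and 0.09 over 6 H4 genes. Fold changes above 0 were found for 3 of 3, 5 of 6, 9 of 12, 4 of 4 and 4 of 6 of them. The called genes were 1 of 6 for H2A and 2 of 12 for H2B. By edgeR, 0 of 3 H1, 0 of 4 H3 and 0 of 6 H4 genes were called, with 1, 1 and 0 at an unadjusted p under 0.05. Over all tested genes, 13.8% were called and 31.2% had an unadjusted p under 0.05. With so few genes per type, 0 calls does not set a type apart. The differences between types were not tested.

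**Figure D4:**
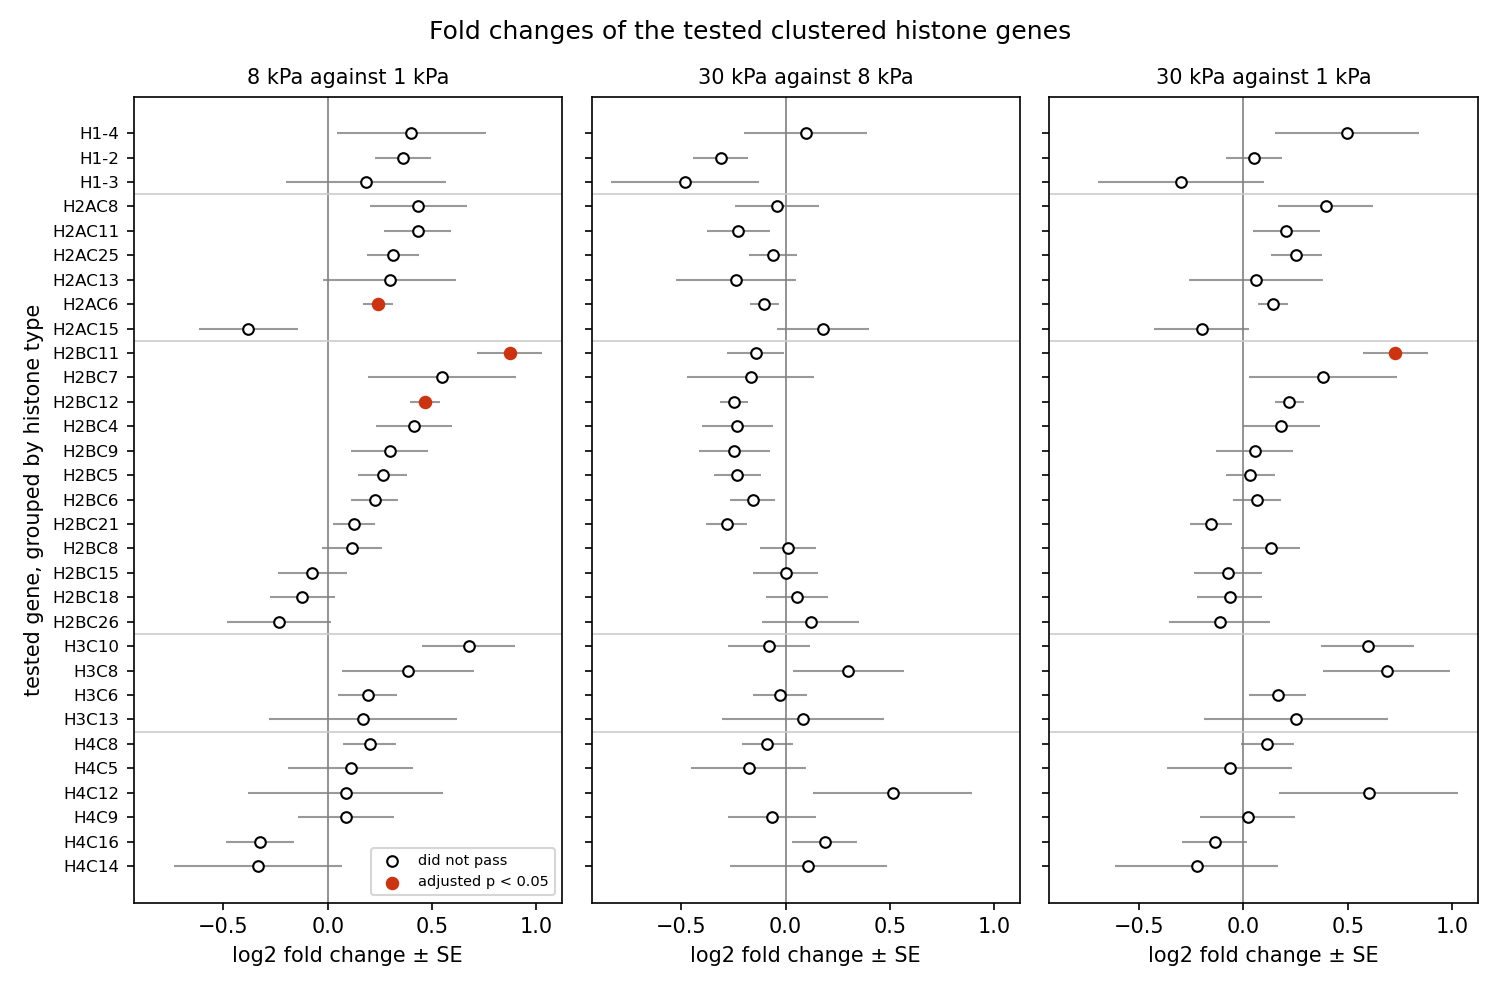
Log2 fold changes with SE for the 31 tested clustered histone genes, by histone type, for 8 against 1 kPa, 30 against 8 kPa and 30 against 1 kPa. From 1 to 8 kPa 25 of 31 lie above 0, and from 8 to 30 kPa 20 of 31 lie below it; the comparisons share libraries.

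From 8 to 30 kPa, edgeR called 0 of the 31 members, as it called 0 (0.0%) of all 17960 genes. An unadjusted p under 0.05 was found for 3 members, all lower (H2BC21, H2BC12 and H1-2), against 17.9% of all genes, and DESeq2 called 1 member (H2BC12, adjusted p 0.0439). The median fold change was -0.08, against 0.00372 over all genes, and 11 of the 31 were above 0 against 50.9% of all genes. The fold change of H2BC12 was -0.25 (SE 0.0689, edgeR adjusted p = 0.15), with every 30 kPa library below every 8 kPa library, as for 6.5% of all genes, and 0 members had every 30 kPa library above every 8 kPa library, against 4.79%. It was -0.28 for H2BC21 (edgeR adjusted p = 0.184), -0.31 for H1-2 (edgeR adjusted p = 0.241), -0.23 for H2BC5 (edgeR adjusted p = 0.301) and -0.10 for H2AC6 (edgeR adjusted p = 0.464). Without 8 kPa replicate 4, edgeR called 2 members lower, H2BC21 (-0.38, adjusted p = 0.024) and H2BC12 (adjusted p = 0.0355), and 1026 of 18229 genes. Each of these 2 passed in 1 of the 12 fits that left out 1 library.

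From 1 to 30 kPa, 1 of the 31 members rose (H2BC11, above) and 0 fell, against 2.43% of all genes called by edgeR and 1.1% called higher. At an unadjusted p under 0.05 were 4 members, all higher, against 18.9% of all genes in either direction. The median fold change was 0.11 against 2.06e-05 over all genes, with 22 of the 31 above 0, as were 8981 of the 17960 genes. The fold change was 0.22 for H2BC12 (edgeR adjusted p = 0.11) and 0.14 for H2AC6 (edgeR adjusted p = 0.311), neither past the threshold. Every 30 kPa library was above every 1 kPa library for 3 members (H2BC11, H3C10 and H2AC8), against 5.33% of all genes, and below for 0 members, against 6.06%. The H2BC11 call held in 7 of the 12 fits that each left out 1 library. It was lost without 1 kPa replicate 2 (adjusted p 0.0542) or 3 (0.08) and without 30 kPa replicate 1 (0.0566), 3 (0.103) or 4 (0.053), and with depth class as a term the edgeR adjusted p was 0.444.

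Whether 8 kPa stood apart from the softer and the stiffer substrate was tested as its departure from the mean of 1 and 30 kPa. Of the 31 members 2 were higher, H2BC11 and H2BC12, and 0 were lower, against 7.08% of all genes called by edgeR and 4.42% called higher. H2BC12 departed by 0.36 (SE 0.0596, edgeR adjusted p = 0.0231) and H2BC11 by 0.51 (SE 0.125, edgeR adjusted p = 0.0349). With depth class as a term, H2BC12 (0.38, edgeR adjusted p = 0.0295) and H2BC11 (0.57, edgeR adjusted p = 0.0361) were still called. The departure was 0.17 for H2AC6 (edgeR adjusted p = 0.0921) and 0.34 for H1-2 (edgeR adjusted p = 0.0805), neither past the threshold. H1-2 passed with DESeq2 (adjusted p 0.0462) and without a filter on low counts (edgeR adjusted p = 0.0182). With 1 library left out, the call held in 8 of 12 fits for H2BC12 and 6 of 12 for H2BC11, with highest adjusted p-values of 0.138 and 0.148. Neither gene passed when 8 kPa replicate 1 or 3 or 30 kPa replicate 1 or 2 was left out, and H2BC11 also failed without 1 kPa replicate 3 or 8 kPa replicate 2. Without 8 kPa replicate 4, 7 members were called, and 2870 of 18229 genes. The 12 fits that left out 1 library ranged from 0 to 7 members called. This comparison shares its 8 kPa libraries with both comparisons above.

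Summed over all 69 members, the level was 295, 288, 310 and 255 CPM at 1 kPa, 371, 353, 354 and 296 CPM at 8 kPa and 318, 296, 305 and 291 CPM at 30 kPa. The 8 kPa libraries other than replicate 4 were above every other library, and replicate 4 lay within both other groups. The means were 287 ± 23.2, 344 ± 32.9 and 302 ± 11.8 CPM (SD, n = 4 each). The mean at 8 kPa was 1.20 times that at 1 kPa, and by type this ratio was 1.28 for H1, 1.21 for H2A, 1.19 for H2B, 1.24 for H3 and 1.06 for H4. The summed H2A level did not overlap between 1 kPa (59.9 to 67.8 CPM) and 8 kPa (69.4 to 83.7 CPM). In bulk RNA, more cells expressing a gene and more RNA per cell cannot be told apart.

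**Figure D5:**
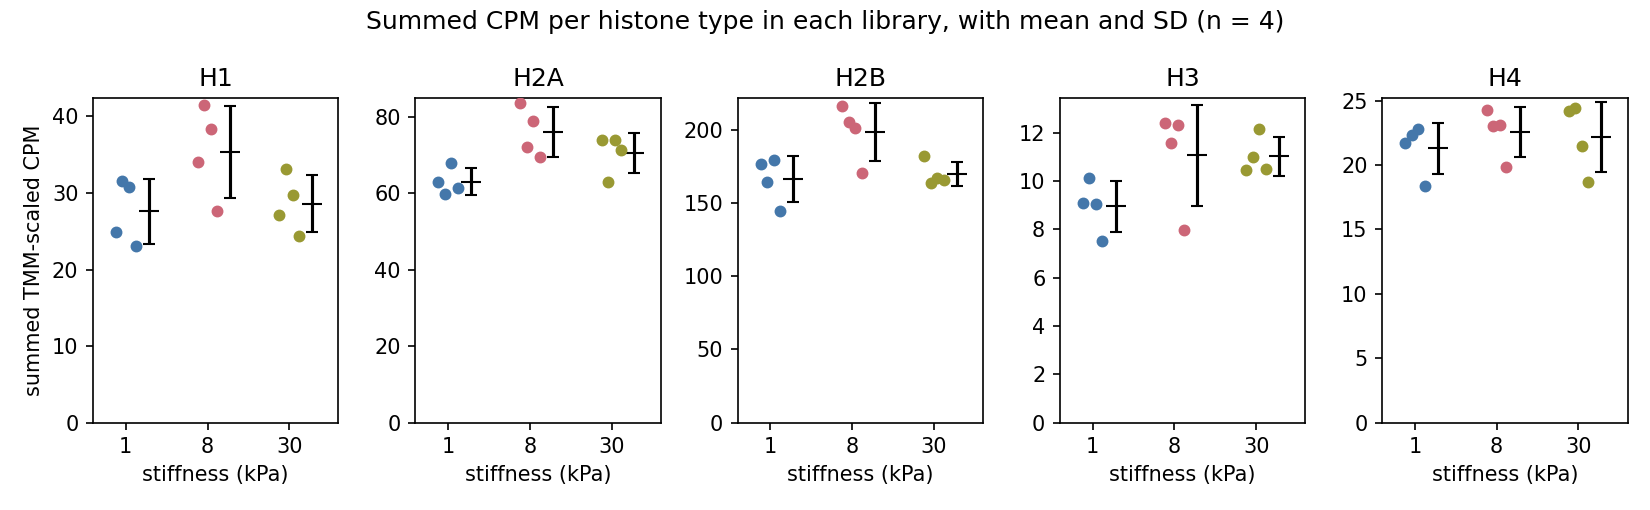
Summed CPM of all clustered histone genes of each type in each library, with the mean and SD of the 4 libraries per stiffness; each axis starts at 0. The H2A sums at 8 kPa, 69.4 to 83.7 CPM, all lie above those at 1 kPa, and the H4 sums overlap across the groups.

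Of 19 tested genes for histone transcription and 3′ end processing, 3 rose from 1 to 8 kPa and 0 fell, with a median fold change of 0.10, where 8.17% of all tested genes were called higher and 13.8% in either direction. The 3 were LSM10, a subunit of the U7 particle that cleaves histone messages (0.42, edgeR adjusted p = 0.0143), ERI1, an exonuclease that trims the stem-loop (0.37, edgeR adjusted p = 0.018), and CCNE1, the cyclin that drives entry into S phase (0.40, edgeR adjusted p = 0.0369). SLBP, the stem-loop binding protein, had means of 41.7, 45.8 and 43.5 CPM and a fold change of 0.13 (edgeR adjusted p = 0.16). NPAT, the coactivator of histone gene transcription, had 36.6, 36.3 and 36.9 CPM and a fold change of -0.01 (edgeR adjusted p = 0.898).

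Of 11 tested histone genes outside the clusters, 6 rose from 1 to 8 kPa and 0 fell, with a median of 0.28, against 8.17% of all genes called higher. They included H2AX, the variant phosphorylated at DNA breaks (0.56, edgeR adjusted p = 0.00792), H2AZ1, a variant placed at promoters (0.59, edgeR adjusted p = 0.00968), and CENPA, the H3 variant of the centromere (0.68, edgeR adjusted p = 0.0122). Of 23 histone chaperones, 4 rose and 0 fell, with a median of 0.12, against the same 8.17% of all genes. The smallest adjusted p was that of ASF1B (0.61, edgeR adjusted p = 0.00656). NAP1L4 (0.18, edgeR adjusted p = 0.0234) and CHAF1A, a subunit of the factor that loads histones on new DNA (0.27, edgeR adjusted p = 0.0296), were also among the 4.

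Genes of DNA replication and division moved in the same comparison. Of 31 S-phase genes, 15 rose from 1 to 8 kPa and 0 fell, with a median of 0.34, against 8.17% of all genes called higher. Among them was RRM2, a subunit of ribonucleotide reductase (0.47, edgeR adjusted p = 0.0077). Of 12 G2/M genes 11 rose and 0 fell, with a median of 0.48, against the same 8.17%. Summed S-phase levels were 1011 to 1409 CPM at 1 kPa, 1434 to 1634 CPM at 8 kPa and 1421 to 1547 CPM at 30 kPa. Summed G2/M levels were 492 to 716, 785 to 904 and 815 to 953 CPM. Neither sum overlapped between 1 kPa and the stiffer substrates, and their part in the histone levels was not tested. From 1 to 30 kPa, 9 of the 12 G2/M genes, 4 of the 31 S-phase genes and 1 of the 31 clustered histone genes were higher by edgeR, against 1.1% of all genes. All these lists had 0 genes called from 8 to 30 kPa.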

How the data were processed

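The data were 12 RNA-seq libraries. The authors deposited raw counts per gene under Ensembl identifiers, and reads were aligned with HISAT2 to GRCh38, per the submitters' processing notes. The counting tool, annotation release and strand setting are not given in the sources used here. Of the 60664 identifiers, 60463 matched the gene table used for current symbols, and 2 members (H2AC18 and H2AC19) were found through older names.

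The analysis used edgeR 4.0.16 under R 4.3.3. After filterByExpr 17960 genes were left, TMM set the effective library sizes, and 1 model with a term for stiffness covered the 12 libraries. Contrasts were tested by quasi-likelihood with Benjamini-Hochberg adjustment over all tested genes (threshold 0.05). The SE of a log2 fold change is its size divided by the root of F. The biological coefficient of variation was 0.0966. On simulated counts, edgeR recovered 54% of genes changed 1.5-fold and 78% of those changed 2-fold between 8 and 1 kPa.

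Alternatives were DESeq2 1.42.0, limma-voom (limma 3.58.1), other scalings and filters, a replicate block, depth class as a term, only the libraries compared, and leaving out each library. Named were members past the threshold in any comparison, the 2 with the most counts of each type, the 2 on each side of 0.5 CPM, and up to 3 genes of each list with SLBP and NPAT. H2AC8, H2AC11, H2BC4, H2BC5, H2BC6 and H2BC26, the 6 members without counts and the neuroblastoma and mesenchymal markers were named outside this rule, after their values were seen. Members, lists and rules were chosen with earlier results of these data known. Promoters are from RefSeq (GRCh38.p14) and transcripts from GENCODE v29 (GRCh38). Library pairs within a stiffness differed by 3.04 or more in chi-square per gene, so none of these pairs was a repeat. The lowest value was that of 8 kPa replicates 1 and 3, against 7.35 to 42.9 for the other pairs. Pairs across stiffnesses were not compared.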

Additional observations from a re-analysis of the deposited data

Results flagged for a closer look

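A total of 60 groups of 4 libraries were checked for a library far from the other 3 by Dixon's criterion (gap to the nearest library over the range of the group), and chance alone marks about 1 group in 20. H2BC12 had 48.3 CPM in 30 kPa replicate 2, against 52.9 to 53.4 CPM in the other 30 kPa libraries, a gap of 0.911 of the range. H4C8 had 10.1 CPM in 1 kPa replicate 4, against 12.9 to 13.3 CPM in the other 1 kPa libraries, a gap of 0.876 of the range.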

How the results depend on the processing

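The number of clustered histone genes called from 1 to 8 kPa (3) was 5 without a filter on low counts (adding H1-2 and H3C10). It was 0 with depth class as a term, where 9 members still had an unadjusted p under 0.05. With that term this comparison rests on 8 kPa replicate 1, the only shallow 8 kPa library, so the lost calls do not decide the part of depth. From 8 to 30 kPa (0) the number called was 1 with DESeq2, and from 1 to 30 kPa (1) it was 0 with depth class. Leaving out 1 library gave 2 to 8, 0 to 2 and 0 to 1 calls in these comparisons, and 0 to 7 for the departure of 8 kPa (2). The highest numbers of the first, second and last came without 8 kPa replicate 4.

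Over all genes, 2472 calls from 1 to 8 kPa became 0 with depth class (4299 at an unadjusted p under 0.05) and 1068 with only the libraries compared. From 8 to 30 kPa (0; 3218 unadjusted) there were 330 without a filter, 414 with DESeq2 and 61 with only the libraries compared. From 1 to 30 kPa (437) there were 263 with library size alone, 875 without a filter, 1068 with DESeq2 and 0 with depth class (1763 unadjusted). The departure (1272) had 2263 with DESeq2. Leaving out 1 library gave 534 (without 8 kPa replicate 3) to 3563 (without 1 kPa replicate 4), 0 to 1026 (without 8 kPa replicate 4), 50 (without 30 kPa replicate 3) to 676, and, for the departure, 0 (without 8 kPa replicate 1 or 3 or 30 kPa replicate 1) to 2870 (without 8 kPa replicate 4).

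Libraries of the same replicate number did not deviate together in every pair (correlations -0.134 to 0.369, and 6 of 12 libraries correlated best with their own number). The only correlation below 0 was that of replicate 4 between 1 and 8 kPa. The labels state no pairing, and the main model did not take the numbers as one. With a replicate block, 6 histone genes were called from 1 to 8 kPa (adding H1-2, adjusted p 0.00475, H2BC5, 0.0254, and H2AC11, 0.0431) and 5 for the departure (adding H1-2, 0.0151, H2BC5, 0.027, and H2AC6, 0.0387). Over all genes the block gave 3273 calls from 1 to 8 kPa, 40 from 8 to 30 kPa, 974 from 1 to 30 kPa and 2096 for the departure. The cause of these differences was not tested. No fold change given above for a member by name reversed in any setting. Reversal was not checked for named members without such a value, or for their other comparisons. Only the libraries compared was not run for the departure. Depth limits the 38 untested members, and H2BC11 rests on 30 to 42 counts per 1 kPa library.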
